A study of Mus musculus with 6 samples.

Results

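Transcript levels of the 10 genes that govern the entry of pyruvate into mitochondrial metabolism were examined in cultured smooth muscle cells of the mouse pulmonary artery (mPASMCs) after knockdown of the long noncoding RNA *Snhg18*. The set was taken by gene symbol, and the rule uses no measured value, but the set was chosen with earlier results of these data known. It comprised the pyruvate dehydrogenase kinase genes *Pdk1*, *Pdk2*, *Pdk3* and *Pdk4*, the dehydrogenase subunit genes *Pdha1* and *Pdhb*, the phosphatase gene *Pdp1*, the carrier genes *Mpc1* and *Mpc2*, and the carboxylase gene *Pcx*. All 10 were among the 55487 genes of the count table, and all 10 passed the filter on low counts, together with 14531 genes in all. RNA sequencing covered 3 libraries of mPASMCs given a negative control siRNA (si-NC) and 3 libraries of mPASMCs given an siRNA against *Snhg18* (si-*Snhg18*). The cells of both groups were commercially supplied mouse cells transfected with a lipid reagent, and no allele or further agent is named for either group. A single siRNA was used for the knockdown, so effects of losing *Snhg18* and effects of that siRNA on other transcripts cannot be told apart. The oxygen level of the sequenced cultures, the time after transfection and whether the replicates were separate cultures are not given in the sources used here, so the p-values measure the spread between these libraries, which may be technical.

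Pyruvate made by glycolysis in the cytosol crosses the inner mitochondrial membrane through the mitochondrial pyruvate carrier, a heterodimer of MPC1 and MPC2. In the matrix, the pyruvate dehydrogenase complex converts it to acetyl-CoA for the citric acid cycle, whereas pyruvate carboxylase converts it to oxaloacetate. Pyruvate dehydrogenase kinases phosphorylate the E1 alpha subunit and switch the complex off, and pyruvate dehydrogenase phosphatases switch it back on. In pulmonary hypertension, pulmonary artery smooth muscle cells are known to divert pyruvate towards lactate in spite of available oxygen, and dichloroacetate, an inhibitor of the kinases, has been studied as a way to reverse this.

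The sequence upstream of the start site is shown for *Pdk4* and *Pdk3*, the kinase genes with the lowest levels after knockdown relative to si-NC. It is also shown for *Mpc1* and *Mpc2*, the 2 of 10 members whose groups did not overlap. Groups did not overlap for 30.9% of all genes tested. Sequences are from RefSeq on GRCm38.p6, which held 13 start-site windows for 9 of the 10 genes; the entry missing was that of *Pdp1*. Each line gives the 250 bases before the start site, 5′ to 3′ on the strand of the gene. Capitals mark 3 motifs or their reverse complements. GGGCGG is the GC box bound by SP and KLF factors, to which Sp1 belongs. CCAAT is the box bound by NF-Y. ACGTG is the core bound by hypoxia-inducible factors (HIFs).
Pdk4, chr6:5496279-5496528, minus strand: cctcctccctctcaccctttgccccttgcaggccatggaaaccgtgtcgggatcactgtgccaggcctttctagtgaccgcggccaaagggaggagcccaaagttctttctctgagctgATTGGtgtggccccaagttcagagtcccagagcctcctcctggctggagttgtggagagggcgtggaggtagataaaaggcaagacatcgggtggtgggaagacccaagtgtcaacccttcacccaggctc
Pdk3, chrX:93832151-93832400, minus strand: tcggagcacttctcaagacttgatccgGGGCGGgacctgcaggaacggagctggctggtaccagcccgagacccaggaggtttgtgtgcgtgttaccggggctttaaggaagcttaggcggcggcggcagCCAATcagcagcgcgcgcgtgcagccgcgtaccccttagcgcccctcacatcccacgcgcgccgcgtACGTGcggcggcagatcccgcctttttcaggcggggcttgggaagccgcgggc
Mpc1, chr17:8283537-8283786, plus strand: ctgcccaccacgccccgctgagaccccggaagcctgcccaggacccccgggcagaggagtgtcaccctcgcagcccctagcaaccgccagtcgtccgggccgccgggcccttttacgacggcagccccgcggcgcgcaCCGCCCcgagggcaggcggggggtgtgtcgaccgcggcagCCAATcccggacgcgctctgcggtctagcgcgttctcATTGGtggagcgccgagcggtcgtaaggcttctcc
Mpc2, chr1:165461010-165461259, plus strand: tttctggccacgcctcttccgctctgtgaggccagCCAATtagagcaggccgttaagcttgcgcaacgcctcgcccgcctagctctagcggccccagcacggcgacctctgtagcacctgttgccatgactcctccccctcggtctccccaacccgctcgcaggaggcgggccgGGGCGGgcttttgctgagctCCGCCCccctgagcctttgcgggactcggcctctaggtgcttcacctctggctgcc

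Motifs were searched on both strands in windows of 300 bases, from 250 before to 50 after the start site. The window of *Pdk4* held a CCAAT box at -131 and neither of the other motifs. That of *Pdk3* held GC boxes at -223 and 12, a CCAAT box at -120 and an ACGTG core at -53. The carrier genes had the same kinds of match as each other, with CCAAT boxes at -72 and -35 and a GC box at -112 for *Mpc1*, and a CCAAT box at -215 and GC boxes at -76 and -56 for *Mpc2*. Among the 9 genes with a window, 6 held GGGCGG, 7 held CCAAT and 4 held ACGTG, in any of their windows. Counted by window, as over all genes, the matches were in 7, 8 and 4 of 13 windows (53.8%, 61.5% and 30.8%), against 35.7%, 37.4% and 19.6% of 32851 promoter windows. None of the 9 held the FOXO site GTAAACA, which was found in 3.65% of windows. Likewise none held the estrogen-related receptor half-site AAGGTCA (4.72% of windows), the palindromic NRF1 site (0.971%) or the TATA box TATAAA (13.6%). A match, or its absence, describes only the letters of the window.

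The libraries held 18097718 to 25988746 counted reads, and 3 reads in a library corresponded to 0.115 to 0.164 CPM (read counts scaled to a common library size, with TMM factors). *Snhg18* lay between 22.2 and 23.5 CPM in si-NC and between 9.97 and 11.2 CPM in si-*Snhg18*, so that 46.7% of its level remained (log2 fold change -1.10, SE 0.0985, adjusted p = 0.00727). The 7 smooth muscle markers, all expressed, summed to 1748 to 1895 CPM in si-NC and 1200 to 1850 CPM in si-*Snhg18*. Of other cells, several markers had few or no reads in any library. The highest counts were 14 for *Pecam1* of endothelium, 8 for *Ptprc* of leukocytes, 3 for *Epcam* of epithelium and 8 for *Adipoq* of adipocytes. There were none for *Myh6* and *Ckm* of striated muscle or *Adgre1* of macrophages. Other genes of these marker lists had more. Of endothelium, *Cdh5* had up to 247 reads, *Vwf* 70, *Kdr* 49 and *Tek* 32. Of the other lists, *Cd53* had up to 2748, *Cd14* 1244, *Csf1r* 216, *Cd68* 89, *Krt18* 542, *Fabp4* 1710 and *Tnnt2* 209. Among them *Cd53* was lower after knockdown (109 ± 12.2 and 50.8 ± 0.359 CPM, adjusted p = 0.00727), and the summed leukocyte markers were 113 to 157 and 71.9 to 112 CPM. The summed levels were 12.4 to 14.0 and 13.3 to 15.4 CPM for endothelial, 7.25 to 22.7 and 1.19 to 7.42 CPM for epithelial, and 3.14 to 5.66 and 4.08 to 8.39 CPM for striated muscle markers. The part of these shifts in the members' levels was not tested. The 5 fibroblast markers summed to 2765 to 3749 CPM in si-NC and 1591 to 2619 CPM in si-*Snhg18*, with 3 lower in the blocked fit.

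Across the 10 genes, no member passed an adjusted p of 0.05 in the comparison of si-*Snhg18* with si-NC, against a background of 7.36% of all genes tested (edgeR, 1069 of 14531 genes; 3.65% higher and 3.71% lower). At an unadjusted p under 0.05 the count was 2 of 10 members (*Mpc1* and *Mpc2*), or 20%, against 24.9% of all genes. DESeq2 and limma-voom also passed no member. With the labels' replicate number entered as a block, *Pdk3* and *Pdk4* passed, both lower in si-*Snhg18*, which is 20% of the members against 27.2% of all genes in that fit (13.6% of all genes lower). The median log2 fold change of the members was -0.03, with 4 of 10 above 0, beside 0.01 for all genes. In both fits the share of members called was below that of all genes. In bulk samples such as these, fewer cells of a type and less RNA per cell cannot be told apart.

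**Figure D1:**
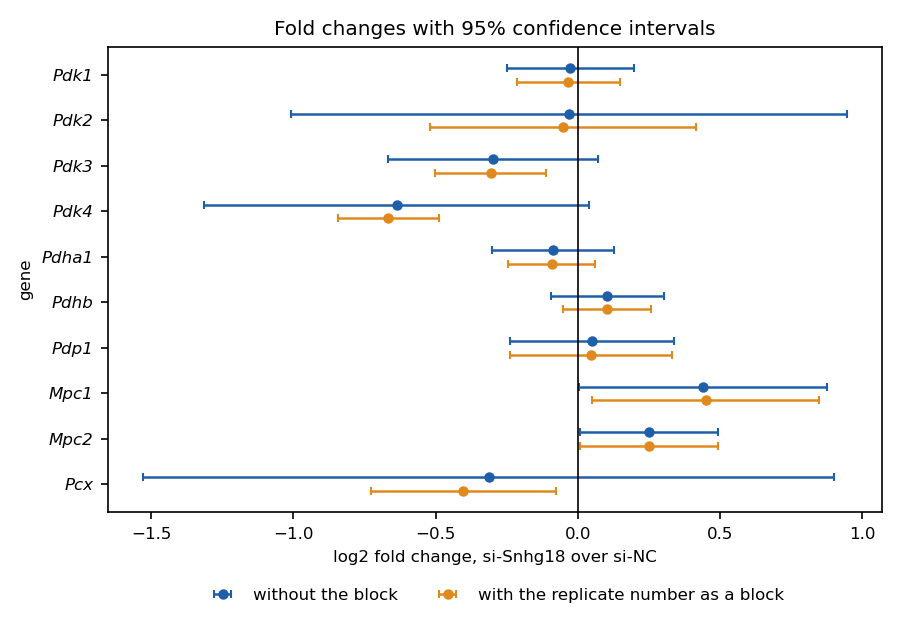
Log2 fold change of each gene in si-*Snhg18* over si-NC, with its 95% confidence interval, from edgeR without and with a block for the replicate number. The interval of *Pdk4* runs from -1.31 to 0.04 without the block and from -0.84 to -0.49 with it, while those of *Mpc1* and *Mpc2* lie just above 0 in both fits.

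*Pdk4* encodes the kinase that is induced in muscle and other tissues on fasting, under the control of PPAR and FOXO factors. The gene (ENSMUSG00000019577) lies on chromosome 6 at 5483351-5496309 of GRCm38.p6, minus strand. Its level was 108, 158 and 104 CPM in si-NC 1, 2 and 3, and 61.5, 113 and 63.5 CPM in si-*Snhg18* 1, 2 and 3. Each si-*Snhg18* library lay below the si-NC library of the same number, at 56.8%, 71.5% and 61.1% of it, but the groups overlapped, since si-*Snhg18* 2 was above si-NC 1 and si-NC 3. The means were 123 ± 30.1 and 79.3 ± 29.2 CPM (SD, n = 3), and without the block the log2 fold change was -0.64 (SE 0.282, edgeR adjusted p = 0.225). With the block it was -0.67 (SE 0.0757, adjusted p = 0.00152), so *Pdk4* fell in that fit. The call held in the blocked fit when each numbered pair was left out in turn, with log2 fold changes of -0.77 to -0.60 and adjusted p-values up to 0.0425. Each such fit holds only the remaining pairs, and its p-values lean on variance estimates shared between genes. These fits called 4542 of 14635, 3504 of 14587 and 651 of 14674 genes without pairs 1, 2 and 3. Without the block, leaving out 1 library gave -0.98 to -0.42. It passed without si-*Snhg18* 2 (-0.98, adjusted p = 0.0188) and did not without the others, among them si-NC 2 (-0.42, adjusted p = 0.498). Coding transcripts of *Pdk4* shared 100 or more stretches of 31 bases with each of 8 other annotated genes, none with more than 670 reads in a library. Beside this result, 6 of 7 smooth muscle markers had negative fold changes, of which *Tagln* passed the test without the block and 4 passed with it, and the part of this shift in the level of *Pdk4* was not tested.

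*Pdk3*, which encodes the kinase isoform known to be least restrained by pyruvate, lies on chromosome X at 93764607-93832201, minus strand (ENSMUSG00000035232). It measured 59.3, 50.8 and 63.5 CPM in si-NC and 55.0, 38.2 and 47.9 CPM in si-*Snhg18*. The knockdown libraries were again lower in 3 of 3 same-numbered pairs, at 92.8%, 75.3% and 75.4% of si-NC, with overlapping groups. The log2 fold change was -0.30 (SE 0.153, adjusted p = 0.284) without the block and -0.31 (SE 0.0830, adjusted p = 0.0324) with it. This call was less firm than that of *Pdk4*, since it was lost when pair 2 (adjusted p = 0.0988) or pair 3 (adjusted p = 0.263) was left out and with DESeq2 (adjusted p = 0.0529, block included). Being lower in 3 of 3 pairs was itself common, as it held for 30% of all genes tested.

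*Pdk1* and *Pdk2* did not pass the test in either fit. *Pdk1* (ENSMUSG00000006494, chromosome 2 at 71873224-71903858, plus strand), a target of HIF-1, had the highest CPM of the kinase genes, without division by length. It measured 193, 200.2 and 199 CPM in si-NC and 209, 169 and 204 CPM in si-*Snhg18*, a log2 fold change of -0.03 with a 95% interval of -0.25 to 0.20 (adjusted p = 0.886). The knockdown libraries lay on both sides of si-NC, with si-*Snhg18* 2 the lowest of the 6. *Pdk2* (ENSMUSG00000038967, chromosome 11 at 95026258-95041354, minus strand), the widely expressed isoform, was scarce at 4.75, 8.25 and 3.94 CPM in si-NC and 3.36, 8.15 and 5.04 CPM in si-*Snhg18*. Its log2 fold change was -0.03, with a wide interval of -1.01 to 0.95 (adjusted p = 0.970) without the block. With the block the interval was -0.52 to 0.41. Differences of either sign within these intervals remain compatible with these libraries.

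**Figure D2:**
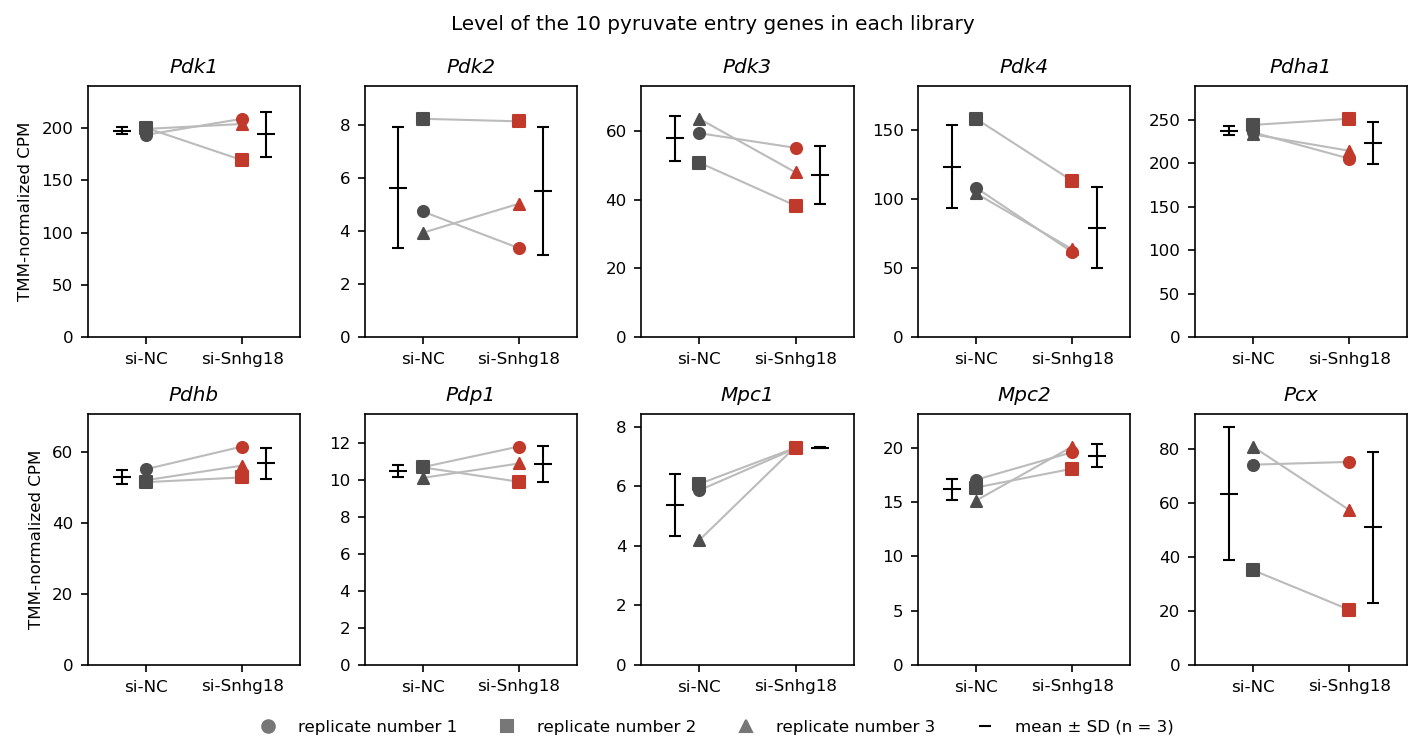
TMM-normalized CPM of the 10 genes in each library, 1 panel per gene with its own axis from 0, points marked by replicate number, and bars for the mean ± SD (n = 3). For *Pdk4*, every si-*Snhg18* point lies under the si-NC point of its own number. *Mpc1* and *Mpc2* are the genes whose groups are fully apart, which was so for 30.9% of all genes tested.

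To ask whether the balance of kinase isoforms differed, levels were divided by the exon length given in the count table, so that genes could be set side by side. Summed over the 4 kinase genes, the level was between 98.5 and 112 CPM per kilobase in the si-NC libraries and between 82.4 and 86.8 in the si-*Snhg18* libraries. All 3 knockdown libraries were below all 3 controls, and the knockdown mean was 82.1% of the control mean (103 ± 7.19 and 84.9 ± 2.23). On the log2 scale the difference was -0.28 (exact permutation test, two-sided p = 0.1, the smallest that 3 against 3 libraries allow, and 0.45 after adjustment over 9 such measures). The share of *Pdk4* in this sum was 34.0% ± 5.81 in si-NC and 26.7% ± 9.27 in si-*Snhg18*, and that of *Pdk1* was 37.0% ± 2.06 and 44.1% ± 5.67 (exact permutation p = 0.3 for each). *Pdk3* made up 26.7% ± 4.54 and 26.3% ± 4.93, and *Pdk2* 2.40% ± 0.798 and 2.89% ± 1.22 (exact permutation p = 0.8 and 0.7). None of the shares passed the test, although that of *Pdk4* was lower and that of *Pdk1* higher in 3 of 3 pairs.

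**Figure D3:**
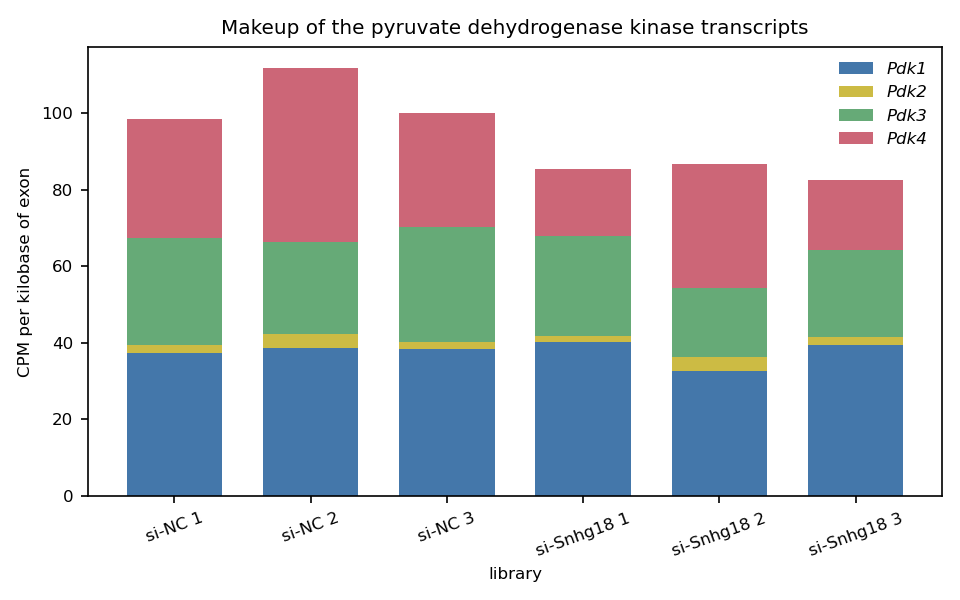
CPM per kilobase of exon of the 4 kinase genes stacked for each library. The stacks reach 98.5 to 112 in si-NC and 82.4 to 86.8 in si-*Snhg18*, and *Pdk2* is the thinnest layer in each.

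Neither gene of the E1 enzyme on which the kinases act passed the test. *Pdha1* (ENSMUSG00000031299, chromosome X at 160122209-160138413, minus strand) encodes the E1 alpha subunit that carries the phosphorylated serines. It measured 236, 244 and 233 CPM in si-NC and 205, 251 and 214 CPM in si-*Snhg18*, with a log2 fold change of -0.09 (95% interval -0.30 to 0.13, adjusted p = 0.591). *Pdhb* (ENSMUSG00000021748, chromosome 14 at 8165996-8173025, minus strand), the E1 beta subunit, measured 55.1, 51.5 and 52.0 CPM in si-NC and 61.5, 52.8 and 56.2 CPM in si-*Snhg18*. It was higher in 3 of 3 pairs, as were 29.6% of all genes. The log2 fold change was 0.10 (interval -0.09 to 0.30, adjusted p = 0.479). The subunits pair in the enzyme, and the *Pdha1* transcript was the more abundant per kilobase, by 2.39 ± 0.123 times in si-NC and 2.11 ± 0.383 times in si-*Snhg18* (exact permutation p = 0.4 for the log2 ratio). *Map3k15* shares 603 exon bases with *Pdha1* on the opposite strand and had at most 291 reads in a library.

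*Pdp1* (ENSMUSG00000049225, chromosome 4 at 11958184-11966452, minus strand) encodes the catalytic subunit of the calcium-stimulated phosphatase that opposes the kinases. Its level was 10.7, 10.7 and 10.1 CPM in si-NC and 11.8, 9.92 and 10.9 CPM in si-*Snhg18*, with a log2 fold change of 0.05 (interval -0.24 to 0.34, adjusted p = 0.829). Its control libraries agreed closely (SD 0.333 CPM). The summed kinase level per kilobase was 41.3 ± 2.60 times that of *Pdp1* in si-NC and 33.0 ± 3.37 times in si-*Snhg18*. The further phosphatase gene *Pdp2* (17.8 ± 3.89 and 17.7 ± 6.26 CPM) is not in this ratio. The ratio is thus not the whole balance of kinase and phosphatase transcripts. The log2 difference of the ratio, -0.33, was of the same sign in 3 of 3 pairs (-0.39 to -0.25). Its exact permutation p was 0.1, the smallest possible, and 0.45 after adjustment. Since the kinase sum alone differed by -0.28, the ratio largely repeats that difference and is not a separate result.

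Without the block, the carrier genes were the members with the smallest unadjusted p-values, and both had higher means after knockdown without passing the adjusted test. *Mpc2* (ENSMUSG00000026568, chromosome 1 at 165460637-165481214, plus strand) measured 17.1, 16.3 and 15.1 CPM in si-NC and 19.6, 18.1 and 20.1 CPM in si-*Snhg18*. The groups did not overlap, which was also the case for 30.9% of all genes tested (15.4% higher). The log2 fold change was 0.25 (SE 0.101, unadjusted p = 0.0444, edgeR adjusted p = 0.188; with the block, adjusted p = 0.114). *Mpc1* (ENSMUSG00000023861, chromosome 17 at 8282904-8297661, plus strand) had 136, 149 and 99 reads in si-NC and 184, 190 and 134 reads in si-*Snhg18*. These corresponded to 5.87, 6.09 and 4.19 CPM against 7.28, 7.31 and 7.34 CPM, again with no overlap. The log2 fold change was 0.44 (SE 0.182, unadjusted p = 0.0482, adjusted p = 0.198; with the block, 0.45 and adjusted p = 0.0911). Neither carrier gene passed the adjusted test on its own reads, by edgeR, DESeq2 or limma-voom. The ratio of *Mpc1* to *Mpc2* per kilobase was 0.911 ± 0.134 and 1.04 ± 0.0576 in the 2 groups (exact permutation p = 0.3 for the log2 ratio), which rests on the length that the table gives for *Mpc1*.

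Counts of *Mpc1* share sequence with a processed pseudogene. *Mpc1-ps* (ENSMUSG00000091498) spans 330 bases, of which 329 are identical to an *Mpc1* coding transcript of 958 bases (99.7%). The pseudogene was assigned 82, 73 and 79 reads in si-NC and 121, 117 and 75 reads in si-*Snhg18*, and how reads that match both loci were assigned is not given in the sources used here. Its log2 fold change was 0.44 (SE 0.172, adjusted p = 0.177), the same as that of *Mpc1*. With both loci summed, the level was 9.41, 9.07 and 7.54 CPM in si-NC and 12.1, 11.8 and 11.5 CPM in si-*Snhg18*, again without overlap. A refit with the reads summed, chosen after the values were seen, gave a log2 fold change of 0.44 (SE 0.131, adjusted p = 0.0985), and with the block 0.44 (SE 0.123, adjusted p = 0.0351). The gene passed only with both the summed reads and the block.

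*Pcx* (ENSMUSG00000024892, chromosome 19 at 4510472-4621752, plus strand) encodes pyruvate carboxylase, which replenishes oxaloacetate. It was the most variable of the abundant members, at 74.0, 35.1 and 80.8 CPM in si-NC and 75.1, 20.4 and 57.3 CPM in si-*Snhg18*. Both libraries numbered 2 were far below the others of their group, and relative to si-NC of the same number the knockdown libraries stood at 101%, 58.2% and 71.0%. The log2 fold change was -0.31 (interval -1.53 to 0.90, adjusted p = 0.744). With the block it was -0.40 (SE 0.138, adjusted p = 0.0689), and with DESeq2 and the block -0.41 (adjusted p = 0.0280). Without pair 1 the blocked edgeR fit called it as well (-0.63, adjusted p = 1.744e-06), whereas without si-*Snhg18* 2 and without the block the sign was positive (0.06). The blocked fit without pair 1 called 4542 of 14635 genes, and with so few libraries its p-values lean on variance estimates shared between genes. *Lrfn4* lies within *Pcx* on the opposite strand with up to 1287 reads but shares no exon base with it. The ratio of *Pcx* to *Pdha1* per kilobase differed by -0.33 on the log2 scale (exact permutation p = 0.7).

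The libraries numbered 2 departed from their group mates in the same direction in both groups for 6 of the 10 members, and in opposite directions for *Pdk1*, *Pdp1*, *Mpc1* and *Mpc2*. On the log2 CPM scale, the number 2 library differed from the mean of its 2 group mates by 0.58 in si-NC and 0.85 in si-*Snhg18* for *Pdk4*, and by 0.92 and 0.97 for *Pdk2*. It lay on the other side for *Pcx* (-1.14 and -1.68) and *Pdk3* (-0.27 and -0.43). For *Pdha1* the gaps were 0.06 and 0.26, and for *Pdhb* -0.06 and -0.15. For *Pdk2* and *Pcx*, these gaps within a group were larger than the difference between the groups in the fit without the block, and for *Pdk4* they were close to it. Their source was not tested.

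**Figure D4:**
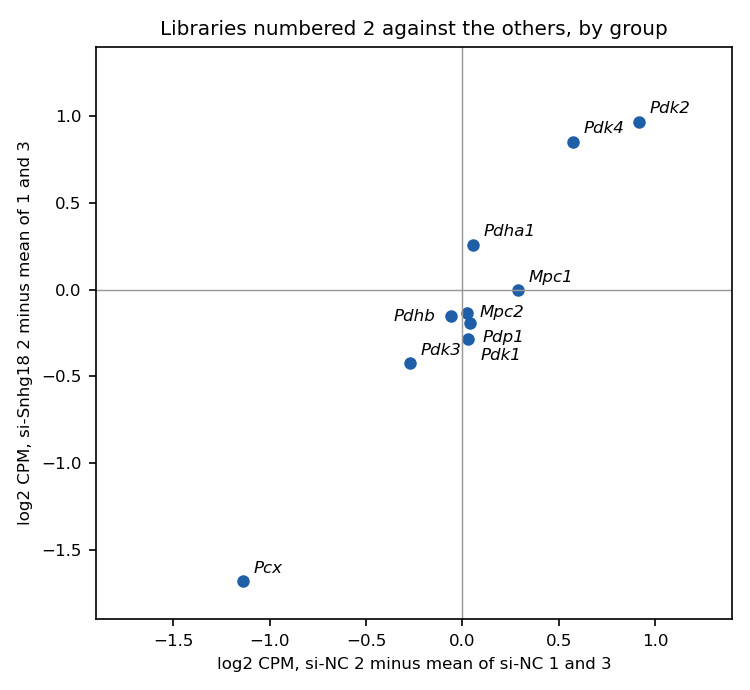
Log2 CPM of the number 2 library minus the mean of libraries 1 and 3, in si-NC on the x axis and si-*Snhg18* on the y axis, 1 point per gene. *Pcx* lies at -1.14 and -1.68 and *Pdk2* at 0.92 and 0.97, so that the largest departures had the same sign in both groups.

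Per kilobase of exon, the order of the mean levels in si-NC was *Pdha1* (83.4 ± 1.98 CPM per kilobase), *Pdk1* (38.1 ± 0.704), *Pdk4* (35.4 ± 8.64), *Pdhb* (35.0 ± 1.30), *Pdk3* (27.4 ± 3.07), *Mpc2* (15.8 ± 0.950), *Pcx* (15.3 ± 5.95), *Mpc1* (14.4 ± 2.77), *Pdk2* (2.51 ± 1.02) and *Pdp1* (2.50 ± 0.0797). *Pdk4* was not apart from *Pdk1* or from *Pdhb* beyond their SDs, nor were *Mpc2*, *Pcx* and *Mpc1* from each other, nor *Pdk2* and *Pdp1*. In si-*Snhg18*, *Pdk4* stood at 22.8 ± 8.39, next to *Pdk3* at 22.3 ± 3.99, and below *Pdhb* at 37.6 ± 2.90 and *Pdk1* at 37.4 ± 4.16. *Mpc1* (19.6 ± 0.0854) and *Mpc2* (18.8 ± 1.03) were then above *Pcx* (12.3 ± 6.72). The SD of *Mpc1* in si-*Snhg18* is smaller than the counting error of its 184, 190 and 134 reads, so it understates the uncertainty of that level. The length given for *Mpc1* was that of its shortest coding transcript (373 bases), and with the longest one (961 bases) its level was 5.60 ± 1.08 in si-NC and 7.61 ± 0.0327 in si-*Snhg18*, below *Pcx* and *Mpc2*.

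Genes that work beside these members were examined as lists. Of 6 further genes of the dehydrogenase complex and its regulators, 5 were tested and none passed in edgeR, at an adjusted or at an unadjusted p under 0.05, with log2 fold changes of 0.0035 for *Dlat* (the E2 subunit), 0.10 for *Dld* (the E3 subunit), -0.21 for *Pdhx*, -0.01 for *Pdp2* and -0.08 for *Pdpr*. None passed among the 8 lipoylation genes, which supply the cofactor of E2, nor among 13 tested genes of cytosolic pyruvate and lactate handling, nor among 9 of related keto acid dehydrogenases and 15 of the citric acid cycle. Fold changes were positive for 7, 5, 3 and 3 genes of these lists, in that order. Summed levels did not overlap for lipoylation (143 to 155 CPM in si-NC, 166 to 167 CPM in si-*Snhg18*) or the related dehydrogenases (506 to 524 and 481 to 502 CPM). They overlapped for the other lists. At an unadjusted p under 0.05 these 4 lists held 1, 1, 2 and 3 genes, each a smaller share than the 24.9% of all genes. The share called with the block was likewise below the 27.2% of all genes in each of the 4 lists. With the block, *Iba57* of the lipoylation list was higher (9.86 ± 1.08 and 14.3 ± 3.58 CPM, adjusted p = 0.0207), and *Gpt2*, the mitochondrial alanine aminotransferase that interconverts pyruvate and alanine, was lower (15.6 ± 0.823 and 9.52 ± 2.93 CPM, adjusted p = 0.0129). In the citric acid cycle list, 1 gene was higher (*Cs*, citrate synthase, log2 fold change 0.25 without the block) and 2 were lower (*Idh3a*, -0.27, and *Idh2*, -0.46, on the same scale) with the block. Of the related dehydrogenases, which oxidize branched-chain and other keto acids, *Bckdha* was higher and *Dbt* lower with the block (adjusted p = 0.0359 and 0.0149).

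Among 13 tested genes known to regulate the kinase genes, 12 had positive fold changes (median 0.31). *Esrra*, the estrogen-related receptor alpha that is known to induce *Pdk4*, measured 30.3 ± 1.94 CPM in si-NC and 45.7 ± 1.69 CPM in si-*Snhg18* (log2 fold change 0.59, adjusted p = 0.0153). It was the only one of the 13 to pass without the block, and 6 passed with it, all higher. Among the 6 were *Rxra* and *Ppard*, partners in the PPAR complex, and *Epas1*, which encodes HIF-2 alpha. The 6 also included *Pparg* (1.27 with the block, adjusted p = 0.0092) and *Hif1a* (0.52 with the block, adjusted p = 0.0210), whose groups overlapped. Without the block, 7.69% of the 13 were called, on the higher side, beside 7.36% of all genes in either direction and 3.65% higher. With the block, 46.2% were called, all higher, beside 27.2% of all genes in either direction and 13.6% higher. Of 13 tested PPAR and fasting targets, none passed without the block (6 at an unadjusted p under 0.05), and 3 were higher and 1 lower with it. These shares are 46.2% at an unadjusted p, beside 24.9% of all genes, and 30.8% with the block, beside 27.2%. *Plin2* (0.38), *Acadvl* (0.32) and *Acadl* (0.21) were higher and *Angptl4* (-0.30) was lower. Beside this list, the 4 adipocyte markers summed to 9.80 to 21.3 CPM in si-NC and 23.8 to 67.7 CPM in si-*Snhg18*, with *Fabp4* the only one tested (log2 fold change 1.52, adjusted p with the block 0.000504), and their part in the result was not tested. Of 15 HIF targets, *Egln3* was higher (0.37, adjusted p = 0.0331), and *Ndufa4l2* (83.3 ± 16.1 and 25.1 ± 6.20 CPM, -1.73, adjusted p = 0.0119) and *Adm* (-0.39, adjusted p = 0.0310) were lower. That is 20% of the 15 without the block, beside 7.36% of all genes. With the block, 3 of the 15 were higher and 3 lower (40% beside 27.2% of all genes), as *Egln1* (0.43, adjusted p = 0.0188) and *Bnip3l* (0.29, adjusted p = 0.0202) passed on the higher side and *Car9* (-0.57, adjusted p = 0.0267) on the lower. *Pdk1* is itself a HIF target and, as above, had a fold change near 0.

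**Figure D5:**
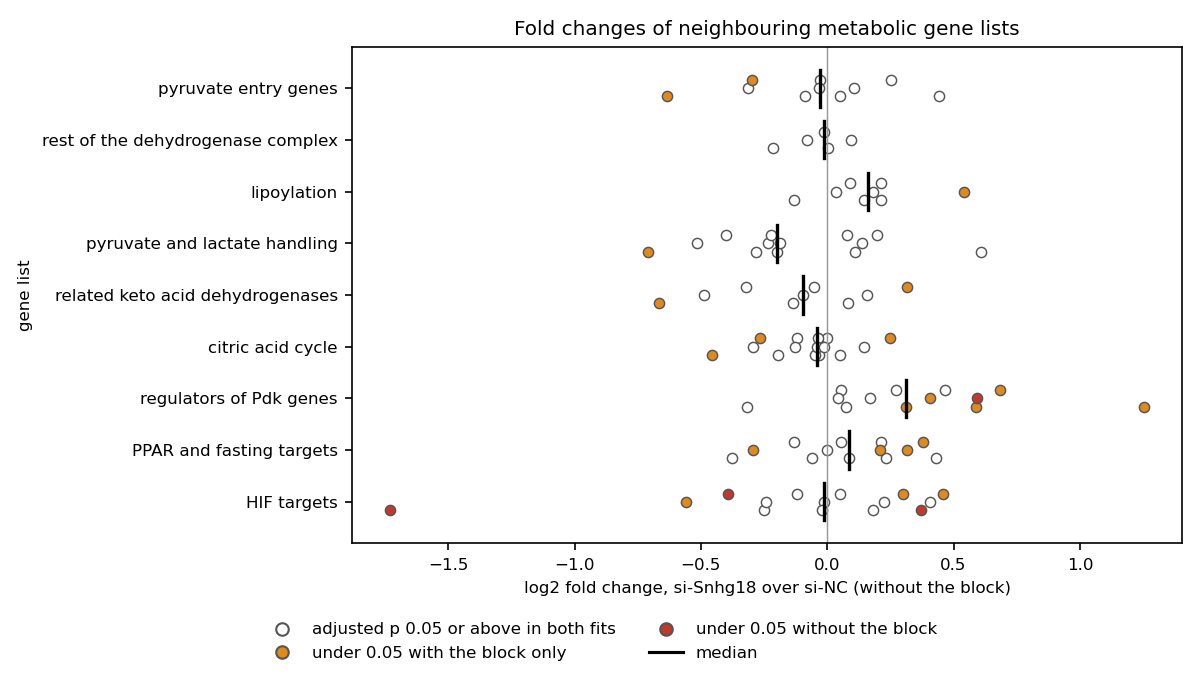
Log2 fold change of each tested gene by list, from the fit without the block, with the list median as a bar and colour for the adjusted p. The median of the regulators of the kinase genes is 0.31 and that of the 10 pyruvate entry genes is -0.03.

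The genes whose levels across the 6 libraries were most like those of *Mpc2*, the member with the smallest p without the block, were *Klhl15* (Pearson r 0.994), *Eif2b1* (0.984), *Ndufs7* (0.982), *Ntan1* (0.981) and *Vac14* (0.979). These coefficients describe 6 libraries that share 1 normalization, and all 5 genes had positive fold changes (0.13 to 0.50).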

How the data were processed

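The authors used the TruSeq Stranded mRNA kit. They deposited counts of reads per gene, whole numbers without normalization, with an exon length per gene. For all 10 members that length equalled 1 annotated coding transcript of GENCODE M21. The submitters' processing notes name HISAT2 and mm10. The counting program, its strand setting and any read filter are not given in the sources used here.

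Group comparisons used edgeR 4.0.16 under R 4.3.3 (filterByExpr with a minimum count of 10, TMM, glmQLFit and glmQLFTest, Benjamini-Hochberg adjustment over 14531 genes, threshold 0.05). The common biological coefficient of variation was 0.218. CPM used TMM-scaled library sizes. DESeq2 1.42.0 and limma 3.58.1 (voom) served as alternatives. The fits were also run on simulated counts, a check of the size and sign of fold changes that set no limit on false calls. Single ratios were compared by exact permutation tests over libraries, two-sided. A floor of 3 reads reflects counting error alone, as no molecular identifiers were used. Groups and replicate numbers came from the labels. Deviations from the group means correlated at 0.41, 0.742 and 0.359 between libraries numbered 1, 2 and 3, so the numbers were treated as pairs, and the block is given where it changes a call. The pairing is a property of these values, since the labels name no shared culture or day, and si-NC 3 correlated more with si-*Snhg18* 1 (0.497).

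All 10 members are named. Of each list, genes with an adjusted p under 0.05 in either fit are named, at most 4 by p, or else the gene with the smallest p. *Dlat*, *Pdhx*, *Pdp2*, *Pdpr*, *Pparg*, *Hif1a*, *Egln1*, *Bnip3l* and single cell type markers were added after their values were seen. The 5 genes most like the member with the smallest p were taken by Pearson r over the 6 libraries. The members and lists were chosen with earlier results of these data known. Other experiments of the study were not analysed here.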

Additional observations from a re-analysis of the deposited data

How the results depend on the processing

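Without the block, 1069 genes passed, against 2124 with DESeq2 and 533 at a 1.5-fold minimum. With the replicate block 3954 passed, with DESeq2 and the block 3166, and with library totals and the block 3892. The number of called members was 0 without the block, and 2 with it, by edgeR (*Pdk3*, *Pdk4*), by DESeq2 (*Pdk4*, *Pcx*) and with library totals (*Pdk3*, *Pdk4*). The block changed no other member's call in edgeR. Leaving out 1 library gave 0 to 3282 called genes and 0 to 1 called members. The 0 came without si-NC 1, si-NC 3 or si-*Snhg18* 3, where edgeR still gave 2512, 2731 and 2464 genes at an unadjusted p under 0.05, and 3282 came without si-*Snhg18* 2. Leaving out 1 pair in the blocked fit gave 4542, 3504 and 651 called genes and 3, 1 and 1 called members without pairs 1, 2 and 3. Signs turned for *Pdk1*, *Pdk2*, *Pdp1* and *Pcx*. Over the leave-one-out fits, the log2 fold change ran from -0.084 to 0.059 for *Pdk1* (positive without si-*Snhg18* 2), from -0.44 to 0.34 for *Pdk2* (0.34 without si-NC 2, 0.23 without si-*Snhg18* 1, 0.03 without si-*Snhg18* 3), from -0.014 to 0.11 for *Pdp1* (negative without si-*Snhg18* 1) and from -0.71 to 0.064 for *Pcx* (positive without si-*Snhg18* 2). In the blocked fit, *Pdk1* was 0.068 without pair 2, *Pdk2* 0.14 without pair 1 and *Pdp1* -0.010 without pair 1. The cause was not tested. *Pdk3*, *Pdk4*, *Pdha1*, *Pdhb*, *Mpc1* and *Mpc2* kept their direction under the alternatives run, but over the leave-one-out fits *Pdk4* ran from -0.98 to -0.42 (without si-*Snhg18* 2 and si-NC 2), *Pdk3* from -0.43 to -0.17 (without si-*Snhg18* 1 and 2), *Pdha1* from -0.18 to -0.030, *Pdhb* from 0.043 to 0.15, *Mpc1* from 0.29 (without si-NC 3) to 0.54 and *Mpc2* from 0.21 to 0.29. The difference in the log2 ratio of *Pcx* to *Pdha1* ran from -0.76 to 0.32, positive without si-*Snhg18* 2. The length and the summed reads of *Mpc1* were alternatives chosen after seeing the data. With 3 libraries per group, the width of the printed intervals limits what could be detected.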
